A study of Xenopus tropicalis with 27 samples.

Results

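Chaperones and folding enzymes of the endoplasmic reticulum (ER), together with transcription factors of the unfolded protein response, were followed in brains of Xenopus tropicalis tadpoles. The 10 genes were hspa5, hsp90b1, calr, pdia4, pdia6, manf, sdf2l1, xbp1, atf4 and ddit3. Each was taken by its exact symbol, and each was found once among the 16212 genes of the drug table and once among the 16049 genes of the time course. All 10 were tested in both tables, since the filter on low counts removed none of them. Bulk RNA was sequenced from 3 libraries in each of 9 groups. One group was raised in 10 µM β-estradiol (an estrogen), one in 5 µM cyclopamine (an alkaloid inhibitor of Smoothened, through which Hedgehog signals pass into the cell) and one in the solvent DMSO. Exposure in these 3 groups began at stage 30, and each of their libraries pooled 3 brains of stage 46. The other 6 groups were untreated wild-type brains of stages 40, 42, 44, 45, 46 and 47. No label names a clutch or a rearing day, so p-values measure the spread between these libraries, which may be technical in part.

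Depth was 17643953 to 28482659 counts per drug library and 12936346 to 48271379 counts per time course library. All 10 markers of neurons and neural progenitors on the marker list were measured. Their summed level lay between 7780 and 9170 CPM (counts scaled to a common library size, with TMM factors) in the drug table and between 7240 and 10800 CPM in the time course. Levels are compared within a gene, because no transcript lengths came with the counts.

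Secreted and membrane proteins fold in the ER, where chaperones hold the unfolded chains and disulfide isomerases join their cysteines. When unfolded chains accumulate, sensors in the ER membrane raise the transcription of these helpers through XBP1 and ATF6. The sensor PERK slows translation and favours the synthesis of ATF4, a transcription factor of amino acid metabolism that also drives ddit3, the gene of the factor CHOP. These roles are best known from mammalian cells. In a growing brain, the same machinery serves the making of receptors, adhesion molecules, extracellular matrix and secreted signals.

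In untreated brains the ER helpers fell as development went on. All 10 genes differed among the 6 stages in edgeR, in a data set where 88.4% of all genes did. At stage 47, 8 of the 10 were lower than at stage 40, 1 was higher (ddit3) and atf4 did not pass the test. Over all genes, 40.8% were lower and 40% were higher at stage 47. The median log2 fold change of the 10 genes was -1.80, against -0.015 for all genes tested, and the lowest 5 percent of all genes lay below -1.90. Melanocyte markers fell over the same stages: the summed level of 8 was 21.4 to 24.6 CPM at stage 47 and 110 to 163 CPM at stage 40, with 7 of the 8 lower and 1 higher. Pituitary hormone genes went the other way, with a sum of 256 to 279 CPM at stage 47 and 45.3 to 85.9 CPM at stage 40, and 4 of 7 higher and 1 lower. The sum of markers of neurons and neural progenitors was 7240 to 7690 CPM at stage 47 and 8760 to 9720 CPM at stage 40. Of these 10 markers 4 were higher and 5 lower. Epidermal, retina and choroid plexus sums were also lower at stage 47 than at stage 40. Only 2 epidermal and 2 retina markers were measured, with 1 and 2 of them lower and 0 higher. Of 6 choroid plexus markers 3 were higher and 2 lower, so most called markers went against the sum. Leukocyte and endothelial sums were higher, with 4 of 7 leukocyte markers higher and 0 lower. Of 9 endothelial markers 3 were higher and 1 lower. The part of these cells in the course of the 10 genes was not tested. Fewer cells of a type and less RNA per cell cannot be told apart in such bulk samples, here or in the results that follow.

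hspa5, the gene of BiP, the main Hsp70 chaperone of the ER and the brake on its stress sensors, had a lower mean at each later stage. It had 606, 585 and 603 CPM in the 3 libraries of stage 40, 534, 478 and 516 CPM at stage 42, and 475, 480 and 431 CPM at stage 44. It had 375, 334 and 349 CPM at stage 45, 227, 221 and 195 CPM at stage 46, and 130, 143 and 110 CPM at stage 47. Libraries of neighbouring stages overlapped between stages 42 and 44, and the libraries of every other neighbouring pair were apart. Of all genes, 24.7% lay lower and apart at stage 42 over 40 and 20.6% at 45 over 44. The shares were 28.9% at 46 over 45 and 30.2% at 47 over 46. The means ran 598 ± 11.2, 510 ± 29.1, 462 ± 27.1, 353 ± 20.7, 214 ± 17.2 and 128 ± 16.5 CPM (SD, n = 3) from stage 40 to stage 47. At stage 47 hspa5 was lower than at stage 40 by 2.23 ± 0.08 on the log2 scale (SE), a 4.69-fold difference, with an edgeR adjusted p of 3.58e-17. The steps were largest late: the log2 fold change was -0.39 ± 0.08 for stage 45 over 44, -0.72 ± 0.08 for 46 over 45 and -0.75 ± 0.08 for 47 over 46.

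hsp90b1, which encodes GRP94, the Hsp90 of the ER that folds integrins and Toll-like receptors, kept its level at first. It had 606, 520 and 532 CPM at stage 40 and 512, 531 and 601 CPM at stage 42, with overlapping libraries. It then stood at 468, 461 and 471 CPM at stage 44, 358, 309 and 306 CPM at stage 45, 215, 211 and 204 CPM at stage 46, and 111, 122 and 118 CPM at stage 47. From stage 44 on, the libraries of each stage lay below all those of the stage before. Of all genes, 10.2% did so at stage 44 over 42, 20.6% at 45 over 44, 28.9% at 46 over 45 and 30.2% at 47 over 46. At stage 47 the log2 fold change against stage 40 was -2.24 ± 0.07 (edgeR adjusted p = 5.49e-18). calr, the gene of calreticulin, a lectin chaperone of glycoproteins that also stores calcium, averaged 1603 ± 50.8 CPM at stage 40, 1468 ± 93 at stage 42, 1314 ± 84.9 at stage 44, 972 ± 13.3 at stage 45, 691 ± 24.1 at stage 46 and 419 ± 17 at stage 47. Its log2 fold change at stage 47 over stage 40 was -1.94 ± 0.06 (edgeR adjusted p = 1.84e-18).

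manf and sdf2l1 fell furthest among the 10 genes. manf encodes a small secreted factor that binds BiP in the ER and protects dopamine neurons in rodents. It had 84.8, 73 and 87.7 CPM at stage 40, 69.3, 62.3 and 71.3 at stage 42, 62, 65.4 and 59 at stage 44, 45.8, 45.3 and 46.8 at stage 45, 26.9, 24.4 and 22.6 at stage 46, and 11.2, 12.1 and 8.39 at stage 47. The libraries of stage 47 all lay below those of every earlier stage. The log2 fold change at stage 47 over stage 40 was -2.96 ± 0.10, a 7.77-fold lower level (edgeR adjusted p = 1.66e-17), and the last step alone, stage 47 over 46, was -1.22 ± 0.11 (edgeR adjusted p = 3.64e-09). sdf2l1, a partner of ER DnaJ proteins that keeps their clients soluble, averaged 25.4 ± 4.73 CPM at stage 40, 23.7 ± 1.45 at stage 42, 20.7 ± 0.32 at stage 44, 17.4 ± 0.96 at stage 45, 10.0 ± 1.67 at stage 46 and 4.87 ± 0.92 at stage 47. Its log2 fold change at stage 47 over stage 40 was -2.37 ± 0.14 (edgeR adjusted p = 3.69e-13), and -1.03 ± 0.15 of it fell in the last step.

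**Figure D1:**
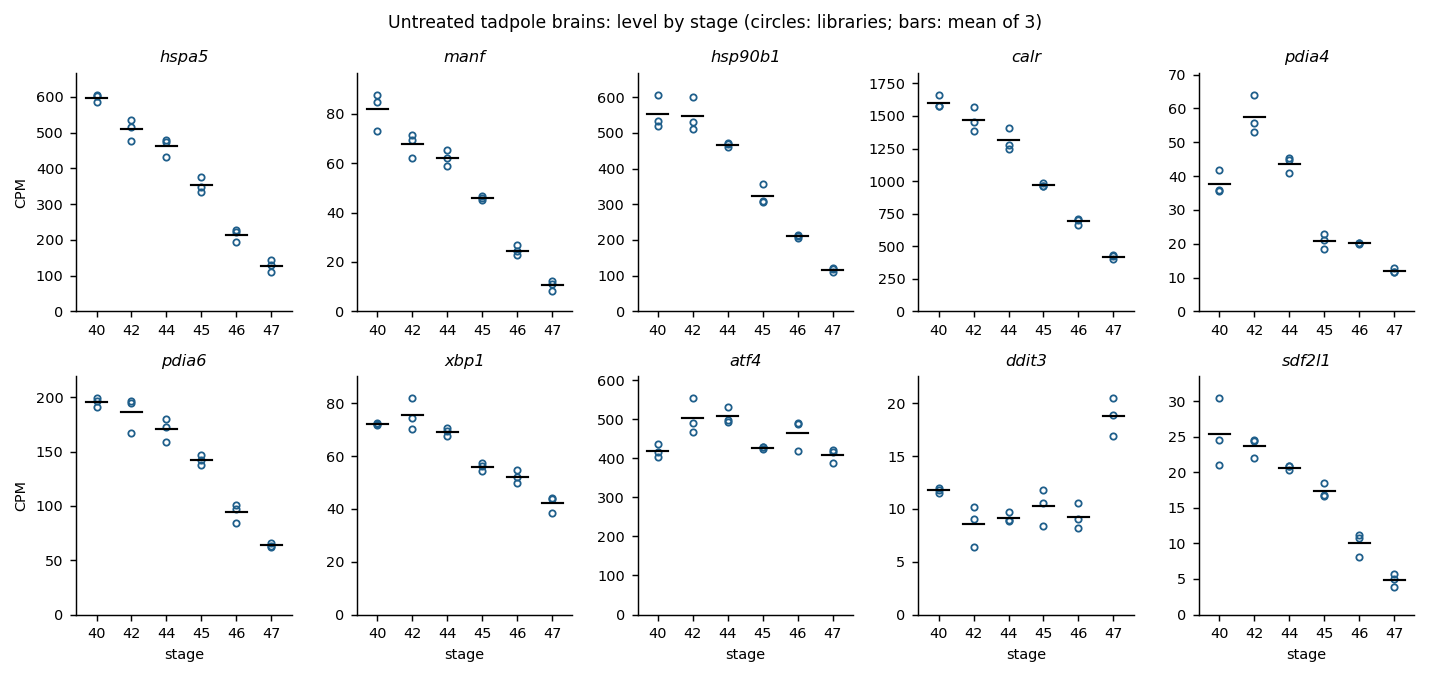
Levels of the 10 genes in untreated brains (CPM on linear axes starting at 0) against stage; circles are the 3 libraries of a stage and bars their mean. The means of hspa5, manf, hsp90b1, calr, pdia6 and sdf2l1 decline at every stage, pdia4 is highest at stage 42, atf4 stays between 388 and 554 CPM in every library, and ddit3 is highest at stage 47.

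The disulfide isomerases took separate courses. pdia6, which also turns down the sensors IRE1 and PERK in mammalian cells, averaged 196 ± 4.14 CPM at stage 40, 186 ± 16.5 at stage 42, 170 ± 10.4 at stage 44, 142 ± 4.45 at stage 45, 94 ± 8.48 at stage 46 and 63.6 ± 1.63 at stage 47. Like hspa5 it had a lower mean at each later stage, but it fell less. Its log2 fold change at stage 47 over stage 40 was -1.62 ± 0.07 (edgeR adjusted p = 6.82e-16), beside -2.23 for hspa5. pdia4, a larger isomerase also called ERp72, rose before it fell. It had 41.7, 36 and 35.6 CPM at stage 40, 52.9, 55.7 and 64 at stage 42, 45.4, 41 and 44.7 at stage 44, 22.7, 21.1 and 18.5 at stage 45, 20.3, 19.9 and 20.2 at stage 46, and 11.6, 12.7 and 11.5 at stage 47. All 3 libraries of stage 42 lay above all others of the time course.

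The log2 fold change of pdia4 was 0.61 ± 0.08 for stage 42 over 40 (edgeR adjusted p = 2.91e-06) and -1.07 ± 0.09 for stage 45 over 44 (edgeR adjusted p = 6.47e-08). The drop at stage 45 was the 7th by p among all 16049 genes in that step. Stage 46 over 45 gave -0.05 ± 0.09 (edgeR adjusted p = 0.679, with a 95% interval of -0.25 to 0.14), and stage 47 over 46 gave -0.75 ± 0.10 (edgeR adjusted p = 1.14e-06). pdia4 was also lower at stage 44 than at stage 42, by -0.40 ± 0.08 (edgeR adjusted p = 0.0103). Without stage 42 replicate 3 or stage 44 replicate 2 that step no longer passed, at an adjusted p of 0.0904 and 0.0681 in edgeR. Markers of fibroblasts, cartilage and notochord were high at stages 42 and 44 alike. The summed level of the 7 measured of 10 was 457 to 641 CPM at stage 42 and 616 to 664 CPM at stage 44. It was 247 to 374 CPM at stage 40 and 333 to 337 CPM at stage 45, and 7 of the 7 rose at stage 42 over stage 40. Red blood cell markers had a sum of 1510 to 1800 CPM at stage 42 and 1460 to 1830 CPM at stage 44. Their sum was 597 to 1120 CPM at stage 40 and 926 to 1050 CPM at stage 45, with 4 of 5 higher at stage 42 over stage 40. At stage 46 their sum was 1250 to 2060 CPM. Endothelial markers had 166 to 177 CPM at stage 42 and 175 to 186 CPM at stage 44. They had 128 to 134 CPM at stage 40 and 144 to 154 CPM at stage 45, with 6 of 9 higher at stage 42. The sum of the markers of neurons and neural progenitors was highest at stage 42, with 10000 to 10800 CPM. It was 8760 to 9720 CPM at stage 40, 9040 to 9720 at stage 44 and 8010 to 8410 at stage 45. Of these 10 markers 7 were higher and 2 lower at stage 42 over stage 40. The part of these cells in the course of pdia4 was not tested.

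The transcription factors covered a narrower range of levels. The highest stage mean was 1.24 times the lowest for atf4, 1.79 times for xbp1 and 2.19 times for ddit3, and between 3.08 times (pdia6) and 7.74 times (manf) for the other 7 genes. xbp1, whose message is spliced by IRE1 into the form that drives chaperone genes, averaged 72.1 ± 0.53 CPM at stage 40, 75.5 ± 5.96 at stage 42, 69.2 ± 1.52 at stage 44, 56 ± 1.62 at stage 45, 52.1 ± 2.44 at stage 46 and 42.1 ± 3.31 at stage 47. Its log2 fold change at stage 47 over stage 40 was -0.78 ± 0.07 (edgeR adjusted p = 1.89e-10). Counts per gene do not separate spliced from unspliced xbp1. atf4, which is controlled largely by translation, had 403, 438 and 416 CPM at stage 40, 554, 492 and 466 at stage 42, 492, 532 and 498 at stage 44, 424, 429 and 430 at stage 45, 488, 490 and 418 at stage 46, and 417, 420 and 388 at stage 47. In the order of its levels each stage overlapped its neighbour. Stage 42 over 40 gave 0.27 ± 0.07 (edgeR adjusted p = 0.00226), and stage 47 over 40 gave -0.04 ± 0.07 (edgeR adjusted p = 0.615, with a 95% interval of -0.17 to 0.10).

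ddit3 went the other way at the end. It had 11.6, 12 and 11.8 CPM at stage 40, 10.2, 9.07 and 6.42 at stage 42, 9.69, 8.91 and 8.9 at stage 44, 11.8, 10.6 and 8.38 at stage 45, 9.02, 10.6 and 8.19 at stage 46, and 20.5, 16.9 and 18.9 at stage 47. The libraries of stage 47 lay above all 15 libraries of the earlier stages, while those of stages 42 to 46 overlapped each other. The log2 fold change was 1.02 ± 0.14 for stage 47 over 46 (edgeR adjusted p = 2.53e-06) and 0.67 ± 0.13 for stage 47 over 40 (edgeR adjusted p = 8.2e-05). At stage 42 ddit3 was lower than at stage 40 by 0.47 ± 0.14 on the log2 scale (edgeR adjusted p = 0.00956), a call lost without stage 42 replicate 3 (edgeR adjusted p = 0.0876). The summed level of 7 measured leukocyte markers was likewise highest at stage 47, with 43.5 to 46.9 CPM there and 22.1 to 37 CPM in the libraries of stages 40 to 46. Of these 7 markers 4 were higher at stage 47 than at stage 40 and 2 higher than at stage 46, and their part in the rise of ddit3 was not tested.

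Of the 10 genes 5 were called at stage 42 over stage 40: hspa5, manf and ddit3 were lower and pdia4 and atf4 higher, where 22.4% of all genes were lower and 24.7% higher. This count was 3 without stage 40 replicate 3 and also 3 without stage 42 replicate 2. At stage 44, 6 were lower (24.6% of all genes) and 2, again pdia4 and atf4, were higher (26.2%), and the total of 8 dropped to 5 without stage 44 replicate 1 or without stage 44 replicate 3, where pdia4, pdia6 and ddit3 lost their calls. At stage 45, 8 were lower, where 28.2% of all genes were, and ddit3 and atf4 did not pass. At stage 46, 9 were lower (37.4% of all genes) and atf4 was higher (34.9%), although atf4 and ddit3 lost their calls there when single libraries were left out.

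For stage 44 over 42, only pdia4 was called lower, where 0.891% of all genes were. For stage 45 over 44, 8 genes were lower, set against 11.2% of all genes: hspa5, manf, hsp90b1, calr, pdia4, pdia6, xbp1 and atf4. For stage 46 over 45, 6 were lower (22.9% of all genes), namely hspa5, manf, hsp90b1, calr, pdia6 and sdf2l1. For stage 47 over 46, 9 were lower (25.8% of all genes) and ddit3 alone was higher (23%). Among the calls of the last 3 steps, that of atf4 for stage 47 over 46 was the 1 lost when single libraries were left out (edgeR adjusted p up to 0.115).

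**Figure D2:**
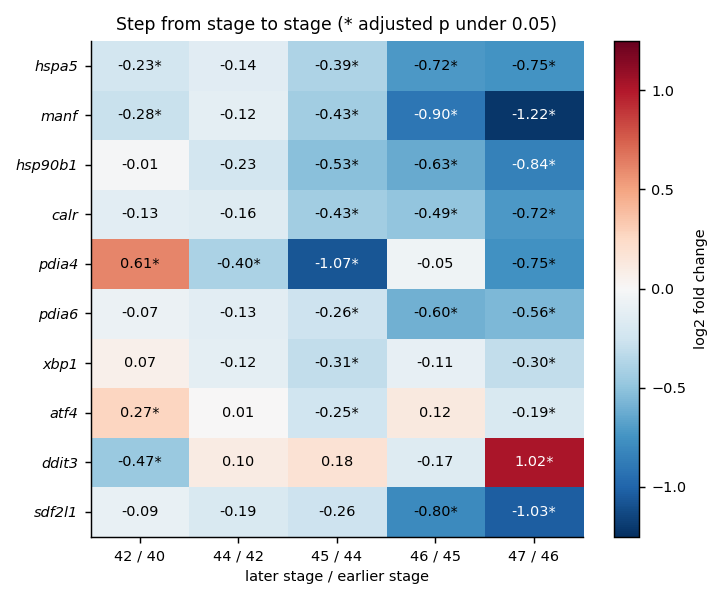
Log2 fold change of each gene (rows) for each step between neighbouring stages (columns, later over earlier), with blue for lower and red for higher; a star marks an edgeR adjusted p under 0.05. The blue of hspa5, manf, hsp90b1 and sdf2l1 deepens towards stage 47, the darkest blue of pdia4 is at stage 45 over 44 (-1.07), and the darkest red is ddit3 at stage 47 over 46 (1.02).

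The courses of the 10 genes were also set beside that of hspa5, by the root mean square difference between centred log2 means over the 6 stages, where 0 is an identical shape. Among 11804 other named genes, cnn2 (calponin 2, an actin binder) was closest at 0.069, followed by ftsj3 (a factor of ribosome assembly) and twf1 (twinfilin, also an actin binder) at 0.070 each, prkag1 (a subunit of the energy sensor AMPK) at 0.086 and tram2 (a translocation factor of the ER) at 0.087. hsp90b1 lay at 0.084, with 3 of those genes closer to hspa5 than it. calr lay at 0.112 with 12 genes closer, sdf2l1 at 0.115 with 15 closer and pdia6 at 0.199 with 164 closer. manf lay at 0.253, pdia4 at 0.342, xbp1 at 0.497, atf4 at 0.735 and ddit3 at 1.07, with 9686 genes closer to hspa5 than ddit3. These distances describe shapes over 6 means from shared libraries and carry no test.

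The wider ER machinery was counted through lists chosen with earlier results of these data known, so their directions are no independent evidence. Of 41 measured among 46 other ER chaperones and foldases, 31 were lower at stage 47 than at stage 40, 7 were higher and 3 did not pass, with a median log2 fold change of -1.01. rcn3, a calcium-binding protein of the secretory pathway, was at -4.59 ± 0.14, fkbp10, a prolyl isomerase that folds collagen, at -3.51 ± 0.12, hyou1, an Hsp110 that recharges BiP, at -1.86 ± 0.07, and txndc5, a disulfide isomerase, at -1.70 ± 0.07. The next machines along the secretory pathway moved likewise. Of 23 measured genes of the translocon, signal recognition and signal peptidase, 21 were lower and 1 higher (median -0.88), among them srp14 at -1.92 ± 0.07 and tram2 at -2.16 ± 0.09. Of 18 N-glycosylation genes 15 were lower and 2 higher (median -1.08), with stt3a, a catalytic subunit of oligosaccharyltransferase, at -1.73 ± 0.07. Of 28 genes of ER to Golgi transport 27 were lower and 1 higher (median -0.95), with preb, which starts COPII coats, at -2.14 ± 0.10.

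Regulators and degradation factors were more mixed. Of 18 measured sensors and regulators of the response, 11 were lower and 5 higher (median -0.43), with eif2s1, the translation factor that PERK phosphorylates, at -1.66 ± 0.06 and atf6 at -0.78. Of 30 genes of ER-associated degradation, 16 were lower and 7 higher (median -0.41), with vcp, the ATPase that pulls proteins out of the ER, at -1.39. Chaperones outside the ER were less mixed. Of 28 cytosolic and mitochondrial chaperones 25 were lower and 1 higher (median -1.16). Among them were hsph1 at -3.43 ± 0.09 and cct2, a subunit of the chaperonin that folds actin and tubulin, at -2.31 ± 0.06. For each of these lists the share of lower genes stood beside 40.8% of all genes, and no list was tested as a set. Every gene named from these lists kept its call in all alternatives run for this comparison.

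Genes known as targets of ATF4 and CHOP did not move as one. Of 41 measured, 23 were lower and 12 higher at stage 47 than at stage 40, where 40.8% of all genes were lower and 40% higher. The 4 with the lowest p, tars1 at -2.66 ± 0.07, lars1 at -2.40 ± 0.07, mars1 at -2.20 ± 0.07 and wars1 at -1.81 ± 0.07, all encode tRNA synthetases, which load amino acids for translation. stc2, a secreted glycoprotein, had 12.9, 12.7 and 16.3 CPM at stage 47, against 0.667, 0.903 and 0.952 CPM at stage 40, a log2 fold change of 4.01 ± 0.21 (edgeR adjusted p = 3.2e-14). mthfd2, a mitochondrial folate enzyme, was at 1.29 ± 0.06, ddit4, an inhibitor of mTORC1, at 1.47 ± 0.13, cebpb at 1.46 ± 0.13 and atf3 at 0.92 ± 0.19. For stage 47 over 46, the step in which ddit3 rose, 11 of the 41 were higher and 19 lower (median -0.16), where 23% of all genes were higher and 25.8% lower. Of the 5 genes just named, stc2 rose by 2.25 ± 0.19, ddit4 by 0.90 ± 0.13, cebpb by 0.59 ± 0.13, mthfd2 by 0.56 ± 0.06 and atf3 by 0.54 ± 0.19 on the log2 scale, each with an edgeR adjusted p no higher than 0.0208. These 5 all come from the 12 genes higher at stage 47 than at stage 40. tnfrsf10b, a target named below with cyclopamine, was lower at stage 47 than at stage 40, at -0.49 (edgeR adjusted p = 0.0181).

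**Figure D3:**
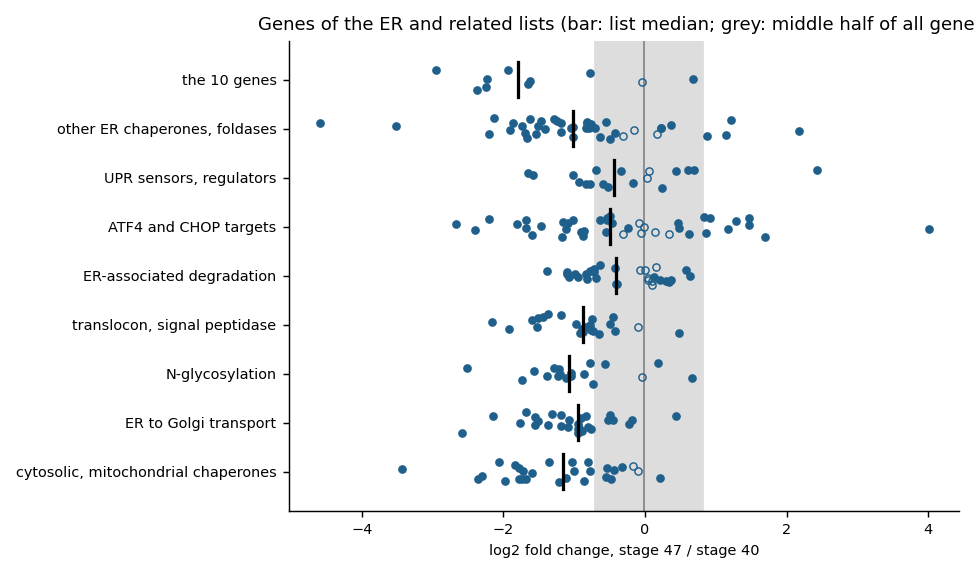
Log2 fold change of stage 47 over stage 40 for the 10 genes and for each measured gene of the related lists (filled, edgeR adjusted p under 0.05; open, not), with a bar at each list's median and grey from the lower to the upper quartile of all genes (-0.71 to 0.82). The median of the 10 genes, -1.80, lies left of the grey band, and the ATF4 and CHOP targets spread to both sides.

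The drug groups set an estrogen and a block of Hedgehog signalling against the solvent at stage 46. Both comparisons use the same 3 DMSO libraries, so their values are set side by side without a measure of agreement. With estradiol, 0 of the 10 genes passed in edgeR, where 1.23% of all genes were higher and 0.833% lower. At an unadjusted p under 0.05 there were 2 (pdia4 and sdf2l1), and DESeq2 and limma each called 0. Of the 10 log2 fold changes 9 were above 0, as were 8386 of the 16212 over all genes. Their median was 0.27 beside 0.012 for all genes. The 10 values come from the same libraries, so they are not separate evidence of a rise.

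The estradiol libraries disagreed among themselves. hspa5 had 157, 93 and 149 CPM with estradiol, against 123, 115 and 130 CPM with DMSO. hsp90b1 had 196, 113 and 176 CPM with estradiol, against 135, 131 and 136 CPM with DMSO. sdf2l1 had 13.1, 7.09 and 15.2 CPM with estradiol, against 6.2, 6.97 and 7.78 CPM with DMSO. In each case estradiol replicates 1 and 3 lay above all DMSO libraries and replicate 2 did not, so the groups overlapped. Replicate 2 was the lowest estradiol library for 8 of the 10 genes, all but xbp1 and ddit3, and it was also the deepest drug library, at 28482659 counts.

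The fitted differences with estradiol were 0.12 ± 0.17 for hspa5 (95% interval -0.26 to 0.50), 0.27 ± 0.17 for hsp90b1, 0.26 ± 0.15 for calr and 0.39 ± 0.24 for manf on the log2 scale, with edgeR adjusted p from 0.326 to 0.714. sdf2l1 was at 0.75 ± 0.25 (edgeR adjusted p = 0.123) and pdia4 at 0.55 ± 0.20 (edgeR adjusted p = 0.145). pdia6 was at 0.26 ± 0.13, atf4 at 0.18 ± 0.09, ddit3 at 0.29 ± 0.26 and xbp1 at -0.06 ± 0.14. Without estradiol replicate 2, 5 genes passed in edgeR: sdf2l1 at 1.02 (adjusted p = 0.0138), pdia4 at 0.71 (0.0427), manf at 0.65 (0.035), hsp90b1 at 0.48 (0.0218) and calr at 0.42 (0.0407). The result for these chaperones therefore turned on 1 library. The share of all genes that passed without replicate 2 was not counted, so the 5 genes have no background beside them. The summed level of 5 measured red blood cell markers was 2750, 703 and 1480 CPM in estradiol replicates 1, 2 and 3, against 389, 354 and 724 CPM with DMSO. That of 8 leukocyte markers was 83.6, 62.6 and 99.8 CPM with estradiol, against 34.1, 41.8 and 41.7 CPM with DMSO. Both sums were thus lowest in estradiol replicate 2, where the chaperones were lowest, as were those of neuronal and liver markers. The sums of fibroblast, endothelial, melanocyte, choroid plexus, epidermal and retina markers were lowest in replicate 1. The fibroblast sum was 167, 434 and 460 CPM in replicates 1, 2 and 3, and the endothelial sum 189, 216 and 318 CPM. The muscle sum was highest in replicate 2 (25.9, 39.7 and 20.9 CPM), and the pituitary sum was lowest in replicate 3. The pituitary sum was 31, 22.5 and 19.3 CPM with estradiol, against 131 to 182 CPM with DMSO. Of its 7 measured genes 5 were lower than with DMSO and 0 higher, and gh1 and prl.2 were at 0 in all estradiol libraries. Of the 5 red blood cell markers 1 was higher than with DMSO, and of the 8 leukocyte markers 5 were. The part of these cells in the levels was not tested.

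Of the wider lists, 2 of 227 measured genes passed with estradiol in edgeR, 26 had an unadjusted p under 0.05, and DESeq2 called 11 and limma 0. In edgeR 1.23% of all genes were higher and 0.833% lower. Both list genes that passed were ATF4 or CHOP targets and lower. mthfd2 had 140, 150 and 135 CPM with estradiol, against 209, 194 and 207 CPM with DMSO, with no overlap (log2 fold change -0.52 ± 0.11, edgeR adjusted p = 0.0363). ddit4 had 48.8, 52.8 and 33.4 CPM with estradiol, against 79.9, 66.7 and 103 CPM with DMSO, also with no overlap (-0.88 ± 0.19, edgeR adjusted p = 0.0438). Over all genes, 13.1% lay lower with estradiol with no overlap. Both calls were lost when any single DMSO library, estradiol replicate 1 or estradiol replicate 3 was left out, and neither passed in limma. Over all alternatives the adjusted p reached 0.183 for mthfd2 and 0.159 for ddit4 in edgeR or limma.

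With cyclopamine, ddit3 rose. It was the only 1 of the 10 genes that passed, where 9.97% of all genes were higher and 9.59% lower. ddit3 had 47.1, 23.8 and 37.1 CPM with cyclopamine, against 14.8, 12.9 and 17.3 CPM with DMSO. The lowest cyclopamine library, replicate 2, was still above the highest DMSO library, as for 19% of all genes. The means were 36 ± 11.7 CPM with cyclopamine and 15 ± 2.21 CPM with DMSO (SD, n = 3 each), a log2 fold change of 1.26 ± 0.26 or 2.4-fold (edgeR adjusted p = 0.00876). Among the alternatives, the fit without a filter repeats this fit, as the filter removed no gene. The fit without cyclopamine replicates 2 and 3 kept replicate 1 alone, the library with the most ddit3. The call held under all 14 alternatives run, with log2 fold changes from 1.08 to 1.74 and edgeR, DESeq2 or limma adjusted p from 1.53e-05 to 0.0443.

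The chaperones did not pass with cyclopamine. hspa5 had 81.8, 102 and 98.7 CPM with cyclopamine, against 123, 115 and 130 CPM with DMSO. hsp90b1 had 98.2, 112 and 99.9 CPM with cyclopamine, against 135, 131 and 136 CPM with DMSO. For both genes every cyclopamine library lay below every DMSO library, as for 30.2% of all genes. Their log2 fold changes were -0.38 ± 0.17 (edgeR adjusted p = 0.14) and -0.37 ± 0.17 (edgeR adjusted p = 0.136), and they passed only in a fit of the cyclopamine and DMSO libraries alone, at an adjusted p of 0.0321 and 0.014 in edgeR. The other 7 genes overlapped between cyclopamine and DMSO, with log2 fold changes between -0.08 (manf) and 0.15 (xbp1). atf4, the activator of ddit3, was at 0.05 ± 0.09 with a 95% interval of -0.16 to 0.25.

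**Figure D4:**
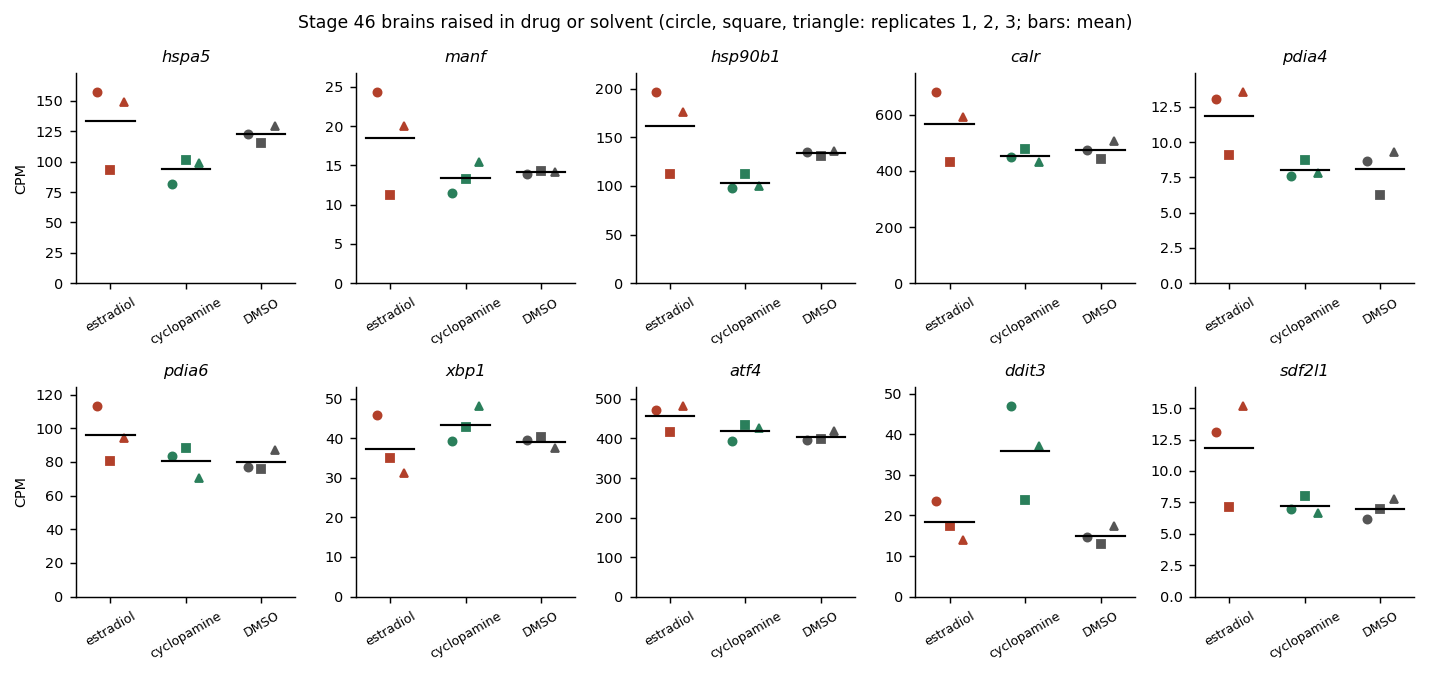
Levels of the 10 genes (CPM on linear axes starting at 0) in stage 46 brains raised in estradiol, cyclopamine or DMSO; circle, square and triangle are replicates 1, 2 and 3 and bars are means of 3. The estradiol square lies lowest of its group for hspa5, manf, hsp90b1, calr, pdia4, pdia6, atf4 and sdf2l1, and the cyclopamine libraries of ddit3, from 23.8 to 47.1 CPM, lie above all DMSO libraries.

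Of 41 measured genes listed as ATF4 or CHOP targets, 4 were higher and 3 lower with cyclopamine, shares near the 9.97% higher and 9.59% lower of all genes, with a median of 0.021. The 4 higher ones were tnfrsf10b, cebpb, stc2 and atf3. Over all genes, 19% lay higher with cyclopamine with no overlap. tnfrsf10b, named for a death receptor that CHOP induces in human cells, had 17.7, 10.5 and 17.2 CPM with cyclopamine, against 3.02, 3.08 and 4.62 CPM with DMSO (log2 fold change 2.08 ± 0.27, edgeR adjusted p = 0.00101). cebpb, a partner of CHOP in DNA binding, had 33.6, 20.1 and 39 CPM with cyclopamine, against 12.7, 11.9 and 15.8 CPM with DMSO (1.2 ± 0.22, edgeR adjusted p = 0.00547). Neither gene's groups overlapped, and both passed under all 14 alternatives. stc2 had 29.4, 10 and 19.6 CPM with cyclopamine, against 6.5, 7.54 and 6.87 CPM with DMSO (1.5 ± 0.35, edgeR adjusted p = 0.0162). atf3 had 13.2, 5.41 and 16.5 CPM with cyclopamine, against 2.97, 2.97 and 5.72 CPM with DMSO (1.59 ± 0.38, edgeR adjusted p = 0.0187), and these groups overlapped. stc2 lost its call without any single DMSO library (edgeR adjusted p up to 0.0722), and atf3 without DMSO replicate 1, DMSO replicate 2 or cyclopamine replicate 3 (up to 0.0832). Of the lower genes of that list, lars1 was at -0.61 ± 0.18 (edgeR adjusted p = 0.0415).

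In all 5 of these genes cyclopamine replicate 2 was the lowest library of its group. Several markers of cells outside the nervous tissue moved in the same direction as ddit3, and those of the pituitary in the other. The sum of markers of neurons and neural progenitors was also lower, at 7780 to 8150 CPM with cyclopamine and 8480 to 9060 CPM with DMSO. Of these 10 markers 2 were lower and 0 higher. Of 8 measured leukocyte markers 8 were higher with cyclopamine, and their sum was 91 to 122 CPM with cyclopamine and 34.1 to 41.8 CPM with DMSO. Of 7 measured skeletal muscle markers 6 were higher, with a sum of 69.3 to 135 CPM with cyclopamine and 8.35 to 12.1 CPM with DMSO. Of 9 endothelial markers 8 were higher, with sums of 309 to 450 CPM with cyclopamine and 166 to 186 CPM with DMSO, and of 8 melanocyte markers 6 were higher, with sums of 45.6 to 127 CPM with cyclopamine and 23.3 to 23.7 CPM with DMSO. The leukocyte, endothelial, melanocyte, epidermal, choroid plexus and retina sums, like ddit3, were lowest in cyclopamine replicate 2. The muscle, neuronal, pituitary and red blood cell sums were lowest in replicate 3, and the fibroblast and liver sums in replicate 1. Of 5 measured epidermal markers 3 were higher, with sums of 131, 127 and 241 CPM with cyclopamine and 54 to 67.2 CPM with DMSO. Of 9 markers of fibroblasts, cartilage and notochord 4 were higher, with sums of 276, 558 and 1640 CPM with cyclopamine, against 316, 257 and 308 CPM with DMSO. Of 7 pituitary hormone genes 6 were lower, with sums of 21.1 to 40.3 CPM with cyclopamine and 131 to 182 CPM with DMSO. No measured marker of these lists was at 0 in all cyclopamine or in all DMSO libraries. Leukocyte sums were also 62.6 to 99.8 CPM with estradiol, with 5 of the 8 markers higher than with DMSO, while ddit3 did not pass there. The part of these cells in the rise of ddit3, tnfrsf10b, cebpb, stc2 and atf3, or in the levels of the chaperones, was not tested.

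**Figure D5:**
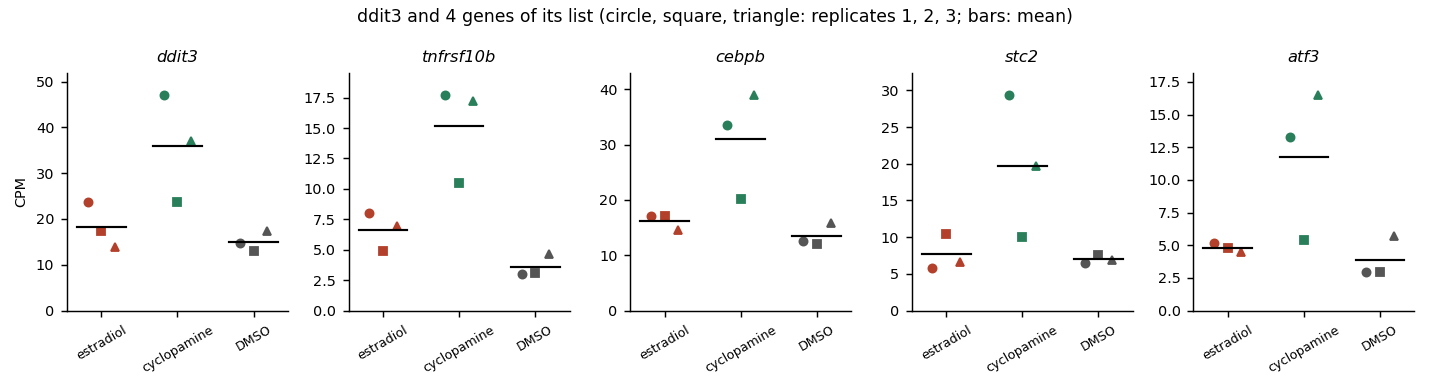
Levels of ddit3 and of 4 genes from the list of ATF4 and CHOP targets (CPM on linear axes starting at 0) by treatment; circle, square and triangle are replicates 1, 2 and 3 and bars are means of 3. The cyclopamine mean is the highest in each panel and its square (replicate 2) the lowest cyclopamine library, and atf3 is the gene of the 5 whose cyclopamine and DMSO libraries overlap.

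Over all the wider lists, 32 of 227 measured genes passed with cyclopamine, 6 higher and 26 lower, where 9.97% of all genes were higher and 9.59% lower. The 32 include the 7 ATF4 or CHOP targets and 12 cytosolic or mitochondrial chaperones. Of 41 other ER chaperones and foldases, creld1 was lower at -0.51 ± 0.12 and fkbp7 higher at 1.66 ± 0.47, and of 18 sensors and regulators 0 passed in edgeR, where 2 had an unadjusted p under 0.05, 1 passed in DESeq2 and 0 in limma. The translocon list had 3 lower genes of 23 (ssr1, sec63 and srp72, each between -0.25 and -0.29), and the ER to Golgi list 3 of 28 (sec24b, sec24c and tmed7). N-glycosylation had 2 lower, the oligosaccharyltransferase subunits rpn1 and rpn2 at -0.26 ± 0.08 and -0.32 ± 0.10, and 1 higher, the epimerase gale at 1.2. The 2 lower genes of ER-associated degradation were fam8a1 and edem3. With relative log expression scaling 0 genes of the translocon, transport, glycosylation and degradation lists were called lower, while creld1 still was. Single libraries also decided most of these calls: creld1 was lost without cyclopamine replicate 1 or 3 or DMSO replicate 1 or 2, fkbp7 without cyclopamine replicate 3 or any DMSO library, and gale without DMSO replicate 2.

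Cytosolic and mitochondrial chaperones held the largest count: 12 of 28 were lower with cyclopamine and none higher, with a median of -0.38 beside -0.078 for all genes. cct5 was at -0.54, cct6a at -0.53 and hspa4, an Hsp110, at -0.46, each with an edgeR adjusted p between 0.00845 and 0.0121. The count fell to 7 with relative log expression scaling, to 3 to 5 without a single DMSO library, and to 0 without cyclopamine replicate 1 and likewise without replicate 3.

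Between estradiol and cyclopamine, 2 of the 10 genes passed. hsp90b1 was higher with estradiol than with cyclopamine, at 0.64 ± 0.17 on the log2 scale (edgeR adjusted p = 0.0462), where 4.16% of all genes were higher. ddit3 was lower with estradiol, with 23.6, 17.5 and 13.9 CPM, against 47.1, 23.8 and 37.1 CPM with cyclopamine (-0.97 ± 0.25, edgeR adjusted p = 0.0452), where 2.6% of all genes were lower. The libraries of ddit3 did not overlap, with the highest estradiol library at 23.64 CPM and the lowest cyclopamine library at 23.77 CPM. For hsp90b1 estradiol replicate 2, at 112.7 CPM, was just above the highest cyclopamine library, at 112.5 CPM. Over all genes, 15.3% lay higher and 9.34% lower with estradiol with no overlap. Neither call was firm. That of hsp90b1 was lost in 10 of 13 alternatives (edgeR or limma adjusted p up to 0.192), including the removal of any library but estradiol replicate 2. That of ddit3 was lost in 5 of 13, without estradiol replicate 2 or 3, without cyclopamine replicate 1 or 3 and in a fit of the compared libraries alone (edgeR adjusted p up to 0.135).

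Without estradiol replicate 2, 6 of the 10 genes were called between the drugs in edgeR: hspa5 at 0.70, manf at 0.73, calr at 0.49, pdia4 at 0.72, sdf2l1 at 0.98 and hsp90b1, each higher with estradiol and with an adjusted p no higher than 0.0377. Without estradiol replicate 3 or without cyclopamine replicate 1 or 3, none was called. The share of all genes called in these fits was not counted. Of the wider lists 10 of 227 genes passed in the full fit, 7 higher and 3 lower with estradiol. Over all genes 4.16% were higher and 2.6% lower, so the lists were not called more often than all genes. The mitochondrial chaperones hspd1 and trap1 were higher with estradiol than with cyclopamine, at 0.78 ± 0.12 and 0.71 ± 0.14, and tnfrsf10b, stc2 and cebpb were lower, at -1.2 ± 0.26, -1.36 ± 0.34 and -0.93 ± 0.22, with edgeR adjusted p from 0.00459 to 0.0425. Of these 5 only hspd1 kept its call under every alternative run.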

How the data were processed

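RNA from Xenopus tropicalis tadpole brains was measured in 27 libraries, 9 groups of 3, grouped by the labels alone. Per the labels' protocols, RNA was Trizol-extracted, polyA-selected and made into stranded low-yield libraries. Gene-level counts, whole numbers, were deposited by the authors as one table of drug libraries and one of the time course. STAR 2.7.3 is named in the submitters' processing notes. Genome build, annotation, counting tool and strand setting: not given in the sources used here, and overlapping or near-identical genes may share reads. All rows hold 3 or more libraries at 1 CPM or above. A second pair of tables deposited by the authors holds log2(CPM + 1) values that were full-quantile normalized, as the values themselves show.

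Each table was fitted alone in edgeR 4.0.16 (R 4.3.3) with TMM factors, filterByExpr (0 genes removed), group means and robust quasi-likelihood F-tests. Calls required p under 0.05 after Benjamini-Hochberg adjustment across the whole table. CPM are given with SD, log2 fold changes with SE, and intervals are at 95%. A count of 3 corresponds to between 0.0621 and 0.232 CPM. Intervals cover the model's spread between libraries, and without molecular identifiers reads need not be separate molecules. Alternatives were other scaling, no filter or a filter at 5 CPM in 3 libraries, DESeq2 1.42.0, limma 3.58.1 on the deposited values, the replicate block, fits of the compared groups alone, leaving out single libraries, and leaving out cyclopamine replicates 2 and 3 together, the last because an earlier analysis of these data found more epidermal transcripts in them. Here the sum of 5 measured epidermal markers was 131, 127 and 241 CPM in cyclopamine replicates 1, 2 and 3. Replicate 2 was thus not above replicate 1 by these markers. Tools were tested on simulated data.

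Members and lists were chosen with earlier results of these data known. Named genes were the 10 members and, per list and main contrast, up to 4 called genes with the lowest p; further genes are named where they recur in another contrast. Genes were matched by exact symbol; 3183 drug table and 3135 time course genes had no usable symbol and were tested but not named. Replicates differed beyond sampling noise (chi-square per degree of freedom 2.66 to 57.1), so none was a repeated deposit.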

Additional observations from a re-analysis of the deposited data

How the results depend on the processing

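Over 161 values of single genes and 2122 alternative values, 1816 kept direction and side of the threshold, 267 lost the call, 12 gained it and 27 changed sign. These tallies depend on which values were entered. The alternative without a filter repeats the main fit, since the filter removed no gene. Outside the drug comparisons and stage 47 over 40, values that the main fit did not call were left out. Gained calls could not be counted there. The 9 calls among the 10 genes at stage 47 over stage 40, and that of ddit3 with cyclopamine, were kept in all alternatives run. Leaving out single libraries, the number called of 10 ran from 0 to 5 for estradiol over DMSO (0 in full), from 0 to 6 for estradiol over cyclopamine (2 in full), from 3 to 6 for stage 42 over 40 (5), from 5 to 7 for stage 44 over 40 (8) and from 0 to 2 for stage 44 over 42 (1). Fits of the compared libraries alone called 3 for cyclopamine over DMSO (1 in full), 0 for estradiol over cyclopamine and 0 for stage 44 over 42. The share of all genes called was not counted in these fits or in those without single libraries. For estradiol over cyclopamine, 1 was called with relative log expression scaling, with the filter at 5 CPM, with limma and with the replicate block. Replicate numbers did not pair the libraries: deviations of same-numbered libraries correlated at -0.314 to 0.213 in the drug table and -0.195 to 0.118 in the time course. Those of differently numbered libraries correlated at -0.386 to 0.514 in the drug table and -0.17 to 0.234 in the time course. The highest was between estradiol replicate 3 and cyclopamine replicate 1. Whether differently numbered libraries share a source was not tested. The replicate block moved no other count of called members past 1.5 times.

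Sign changes were of values near 0 that no test called. With cyclopamine over DMSO, calr was at 0.004 with other scaling, 0.032 with the 5 CPM filter, 0.004 in DESeq2, 0.072 in limma, 0.005 in the compared libraries alone and 0.018 without cyclopamine replicates 2 and 3. pdia4 was at 0.056, 0.084 and 0.055 in the first 3 of these, 0.057 in the compared libraries alone and 0.017 with the replicate block. manf was at 0.018 with the 5 CPM filter, sdf2l1 at -0.057 in limma, and atf4 at stage 47 over 40 at 0.046 with the 5 CPM filter. Without single libraries, signs changed in hspa5 (-0.017 to 0.323) and xbp1 (-0.239 to 0.083) with estradiol, and, with cyclopamine, in manf (-0.129 to 0.080), calr (-0.108 to 0.039), pdia4 (-0.161 to 0.105), pdia6 (-0.053 to 0.166) and sdf2l1 (-0.037 to 0.16). The cause was not tested.

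Relative log expression scaling moved the median of all genes by 0.066 with cyclopamine and by -0.058 between the drugs. It changed the calls over all genes from 1616 higher and 1555 lower to 1763 and 862 with cyclopamine over DMSO, and from 675 and 422 to 473 and 516 for estradiol over cyclopamine. With 3 libraries a group and a biological coefficient of variation of 0.185 in the drug table, beside 0.0788 in the time course, small drug differences were less detectable than stage differences of the same size.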

Other observations

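Some ER genes ran against the fall of the chaperones. They are named after their values were seen. At stage 47 over stage 40, ero1a and ero1b, the oxidases that recharge disulfide isomerases, were at 2.17 and 1.15 on the log2 scale, and fkbp11, a prolyl isomerase of secretory cells, was at 1.22. creb3l1, a membrane-bound transcription factor of the ER, was at 2.43, and eif2ak3, the gene of PERK, at 0.44. Each passed in edgeR, with adjusted p no higher than 4.25e-06. dnajb9 and herpud1, which are among the recognised stress-responsive genes, were at 0.17 and 0.10 and did not pass (edgeR adjusted p = 0.202 and 0.195). Other genes of their lists fell, such as creld2 at -2.20, dnajc3 at -1.42 and edem1 at -0.78, and the counts of both lists are given above.

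The ATF4 and CHOP list was set apart by function, in a split also made after the values were seen and not tested. Of its 12 measured tRNA synthetases 11 were lower at stage 47 than at stage 40, 0 higher and 1 not called, with a median of -1.64. Of its other 29 genes 12 were higher and 12 lower, with a median of -0.02. These values were near those of all genes, where 40% were higher and 40.8% lower, with a median of -0.015. Among the higher were slc3a2, a subunit of amino acid exchangers, at 1.17 and asns, asparagine synthetase, at 0.83, and among the lower psat1 and phgdh, enzymes of serine synthesis, at -0.64 and -0.54.

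DMSO brains and untreated brains of stage 46 carry the same stage label in tables normalized separately, so their levels are set side by side with no test. hspa5 averaged 122 CPM with DMSO, 214 CPM in untreated brains of stage 46 and 128 CPM at stage 47. manf averaged 14.1 CPM with DMSO, 24.6 at stage 46 and 10.6 at stage 47, and ddit3 averaged 15 CPM with DMSO, 9.26 at stage 46 and 18.8 at stage 47. pdia4 averaged 8.09 CPM with DMSO, 20.1 at stage 46 and 12 at stage 47. These 4 were chosen after their values were seen. For 9 of the 10 genes, all but pdia6, the DMSO level lay nearer to the untreated level of stage 47 than to that of stage 46. The same count over all genes was not made, so this count has no background beside it. A shift between the separately normalized tables cannot be told apart from a difference between the brains.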
